A study of Mus musculus with 72 samples.

Results

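H3K27me2, dimethylation of lysine 27 of histone H3, was compared between the nucleus accumbens of resilient mice and that of control mice. The members are all 4659 sites of the authors' deposited table for this comparison, of 36113 sites in the 5 deposited tables together. The resilient group held 4 libraries (numbers 51, 54, 57 and 60) from male wildtype mice labelled resilient after chronic social defeat stress (CSDS), a protocol of repeated encounters with an aggressor. The control group held 4 libraries (49, 52, 55 and 58) from wildtype male mice labelled control in the same experiment, and the series gives all mice as adult. The assay was CUT&RUN, in which micrococcal nuclease is tethered by an antibody in isolated nuclei and the released DNA is sequenced. Isolated nuclei of a whole region hold neurons and glia together, and fewer cells of a type and less mark per cell cannot be told apart. The labels do not say whether the 4 libraries of a group came from separate animals or pools, so the spread between them may be technical.

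H3K27me2 is laid down by Polycomb repressive complex 2, whose catalytic subunit is EZH1 or EZH2, and removed by the demethylases KDM6A and KDM6B. It is the middle step between mono- and trimethylation. In mammalian chromatin it forms broad domains over intergenic sequence and silent genes, while monomethylation is found over transcribed gene bodies and trimethylation at silenced CpG-rich promoters.

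Only windows of 1000 bp with a p-value under 0.0001 entered the authors' table, and every site in it also had an adjusted p under 0.05. Membership therefore already used the contrast between resilient and control libraries. The levels and directions below describe the selected sites and are no independent test of them.

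Few sites reached a promoter, and 5 promoter windows that lay wholly inside a site are shown. The windows below run from 250 bases before to 50 after the start of the transcript (RefSeq, GRCm38.p6), 5′ to 3′ on the gene's strand, with CpG dinucleotides in capitals. The first lay inside a site that was higher in resilient libraries and the others inside lower sites. They were chosen as the Sprr2 pair, whose sites went in opposite directions, and as the promoters of Hjurp (a chaperone of the centromeric histone CENP-A), Sp140 (a nuclear-body protein of the Sp100 family) and Duxf3 (a transcription factor of the early embryo).
Sprr2a1, chr3:92215585-92215884, plus strand: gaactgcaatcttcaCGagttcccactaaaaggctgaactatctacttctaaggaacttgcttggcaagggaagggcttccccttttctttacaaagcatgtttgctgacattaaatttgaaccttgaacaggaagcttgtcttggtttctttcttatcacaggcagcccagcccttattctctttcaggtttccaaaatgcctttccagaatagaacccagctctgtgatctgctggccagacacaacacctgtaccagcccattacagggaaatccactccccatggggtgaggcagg
Sprr2a2, chr3:92250397-92250696, plus strand: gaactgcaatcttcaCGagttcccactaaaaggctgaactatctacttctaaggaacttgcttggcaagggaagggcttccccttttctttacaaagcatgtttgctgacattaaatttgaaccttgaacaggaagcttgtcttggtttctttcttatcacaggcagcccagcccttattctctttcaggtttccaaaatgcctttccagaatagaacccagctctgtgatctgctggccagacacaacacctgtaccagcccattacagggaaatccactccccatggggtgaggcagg
Hjurp, chr1:88277530-88277829, minus strand: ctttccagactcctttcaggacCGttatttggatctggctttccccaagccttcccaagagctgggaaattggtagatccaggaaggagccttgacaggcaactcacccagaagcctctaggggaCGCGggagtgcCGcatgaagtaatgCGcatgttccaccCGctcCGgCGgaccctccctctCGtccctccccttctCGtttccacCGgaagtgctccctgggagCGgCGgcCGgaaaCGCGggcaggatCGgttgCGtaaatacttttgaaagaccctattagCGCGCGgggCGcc
Sp140, chr1:85600453-85600752, plus strand: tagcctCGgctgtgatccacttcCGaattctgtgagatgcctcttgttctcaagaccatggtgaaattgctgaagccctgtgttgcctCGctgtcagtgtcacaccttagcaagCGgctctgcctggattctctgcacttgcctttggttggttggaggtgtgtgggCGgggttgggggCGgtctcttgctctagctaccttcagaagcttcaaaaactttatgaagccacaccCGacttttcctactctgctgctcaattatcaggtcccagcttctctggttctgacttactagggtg
Duxf3, chr10:58233040-58233339, minus strand: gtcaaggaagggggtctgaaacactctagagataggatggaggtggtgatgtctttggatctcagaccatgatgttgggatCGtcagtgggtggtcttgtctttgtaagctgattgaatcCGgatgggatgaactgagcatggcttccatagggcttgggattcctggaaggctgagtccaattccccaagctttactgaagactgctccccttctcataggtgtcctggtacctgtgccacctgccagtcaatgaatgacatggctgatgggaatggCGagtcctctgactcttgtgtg
The Sprr2a1 and Sprr2a2 windows were identical at 300 of 300 bases, with 1 CpG each. The site over the first averaged 448 ± 11.3 normalised reads in resilient and 384 ± 41.6 in control libraries, and the site over the second 513 ± 36.03 against 596 ± 45.3 (SD, n = 4 each). Identity was measured over these windows only, which are shorter than the sites. Reads were uniquely aligned in the authors' processing, and how much of each count came from sequence that differs between the copies was not measured. Both values are therefore uncertain. The first site also lay within 1000 bp of an annotated start of Sprr2a2. The Hjurp window held 22 CpGs at 59.7% GC, the Sp140 window 7 at 52% and the Duxf3 window 3 at 51%. The Hjurp site averaged 92.4 ± 17.8 reads in resilient and 124 ± 35.7 in control libraries (SD, n = 4 each). Its signal was below that of IgG, an antibody without a target, with a ratio of 0.24 in resilient and 0.31 in control libraries. The Sp140 site had ratios of 1.63 and 1.59. The groups overlapped at the Hjurp, Sp140 and Duxf3 sites. All RefSeq promoter windows together had a median of 7 CpGs and 52.7% GC (32851 windows). Counting non-coding and predicted transcripts too, the 8 RefSeq windows that lay wholly inside higher sites had a median of 1 CpG and 40.8% GC, and the 14 inside lower sites 2.5 CpGs and 50.3% GC. Most of these windows in higher sites belong to such transcripts, and Sprr2a1 is the only one of them at a protein-coding promoter site counted further on, so the medians do not describe those promoters.

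Most H3K27me2 sites had more reads in resilient than in control libraries. Of the 4659 sites, 3706 (79.5%; exact 95% interval 78.4 to 80.7, for counting error only) were higher in resilient libraries and 953 were lower. The number of all 4659 sites was 8.84% of the 52728 windows over which the authors adjusted p-values. By direction, the shares were 7.03% for higher and 1.81% for lower sites. A site can be longer than a 1000-bp window (median 1100 bp), so these shares set unlike units side by side. The median log2 difference was 0.49 at higher and -0.47 at lower sites in the authors' deposited table, and no site passed 1.0 in size. With library medians made equal over these sites, the medians were 0.12 at higher and -0.86 at lower sites. That scaling assumes that the median selected site does not differ, although the sites were selected for a difference. It therefore cannot show how uncertain the deposited scaling is. The median higher site had 96.8 normalised reads in resilient and 68.5 in control libraries, and the median lower site 72.7 and 101. The authors' enrichment over IgG, an antibody without a target, had a median of 1.94 in control and 2.89 in resilient libraries at higher sites, and of 2.61 and 1.98 at lower sites.

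Control libraries were more spread than resilient ones at the higher sites, and less clearly so at the lower sites. At higher sites, the 4 resilient libraries lay together, at medians of 0.49, 0.52, 0.52 and 0.52 log2 units above the control mean. The 4 control libraries were spread, with library 49 at 0.28, library 58 at 0.01, library 52 at -0.09 and library 55 at -0.17. Library 49 was the control nearest to the resilient libraries at 65.2% of the higher sites. At lower sites, the medians ran from -0.46 to -0.36 in resilient and from -0.11 to 0.06 in control libraries. The groups did not overlap at 2205 of 3706 higher sites (59.5%) and 523 of 953 lower sites (54.9%), shares that the selection of the sites raises.

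**Figure D1:**
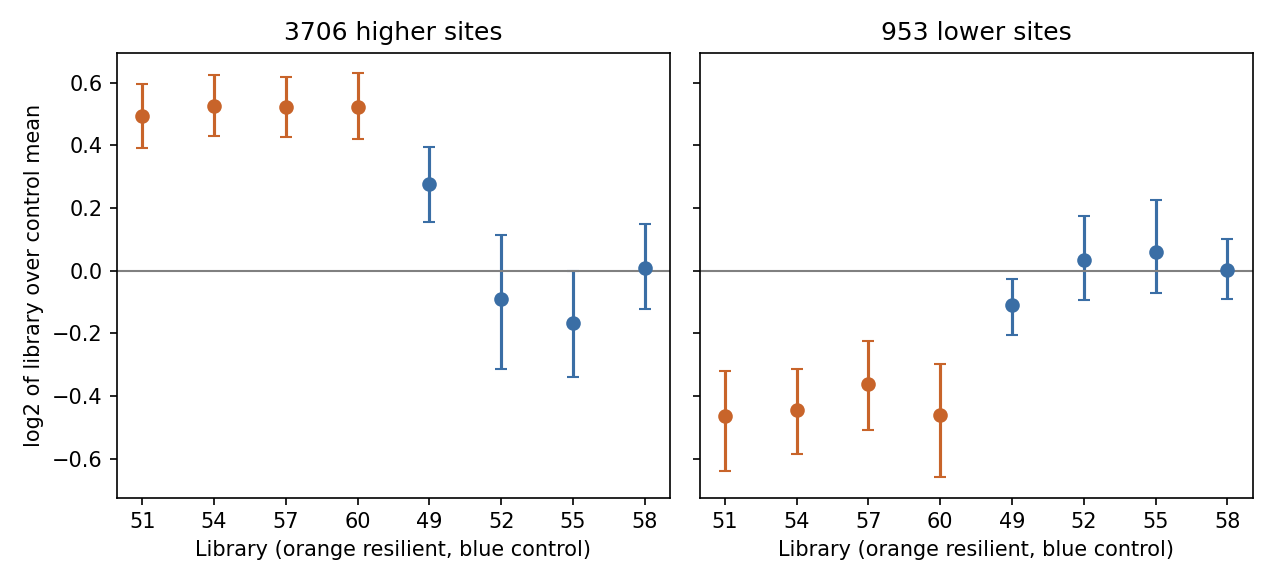
Median log2 ratio of each library to the mean of the 4 control libraries, over 3706 higher (left) and 953 lower (right) sites; bars span the lower to upper quartile over sites. The 4 resilient libraries sit between 0.49 and 0.52 on the left, while the control libraries run from -0.17 to 0.28.

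Control library 52 was the shallowest, at 10.6 reads per 1000-bp bin against 24.1 to 40.3 in the other 7 libraries. Mean depth was 27.3 ± 3.87 reads per bin in resilient and 28.9 ± 13.0 in control libraries (exact permutation test, two-sided, p = 0.857; n = 4 each; smallest possible p 0.0286). A single read in library 52 counted as 2.42 normalised reads, and a site held a median of 30 of its reads, down to 2. With the G-test rebuilt without library 52, 4124 sites kept their direction and an adjusted p under 0.05 (3272 higher and 852 lower), so 535 were lost. Without control library 55, which was not shallow, 4041 sites were kept. With both left out, 1656 sites were kept, of which 72.5% were higher; fewer libraries also lower the reach of the test. A total of 3332 sites (71.5%) were kept whichever single library was left out.

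**Figure D2:**
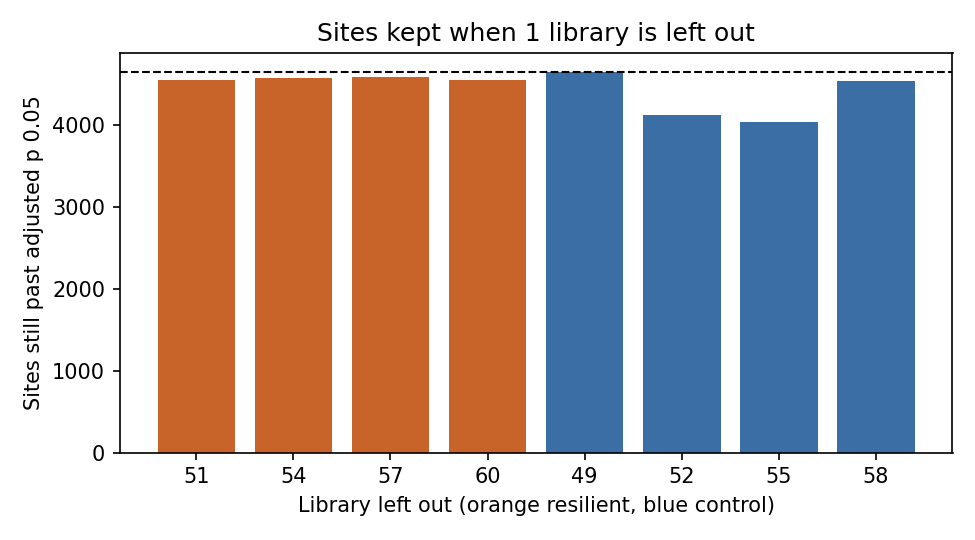
Number of sites that kept their direction and an adjusted p under 0.05 in the rebuilt G-test when 1 library was left out (bars); the dashed line marks all 4659. The lowest bars are those without control library 55 (4041) and control library 52 (4124).

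The authors' G-test compares the summed normalised reads of the groups and takes no account of the spread between libraries. A limma fit of log2(normalised reads + 1) took the 8 libraries as replicates. In that limma fit, 0 of the 4659 sites passed an adjusted p of 0.05 over all 52728 windows (0%, smallest 0.211). Windows outside the deposited sites have no values here and were counted as not passing. Each site entered as if it were a single window. An unadjusted p under 0.05 was reached by 4452 sites (95.6%), and limma voom on the recovered reads also gave 0, with 4453 at an unadjusted p under 0.05. With a weight per library, 3108 passed (2587 higher and 521 lower). Those weights were estimated on the selected sites and ran from 0.279 for library 52 to 2.97 for control library 58.

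Most sites lay far from genes. Of the 3706 higher sites, 3424 (92.4%) were intergenic, 252 (6.80%) lay in the body of a protein-coding gene and 30 (0.809%) within 1000 bp of a start. Lower sites were less one-sided, with 789 of 953 intergenic (82.8%), 134 in gene bodies (14.1%) and 30 at promoters (3.15%). An intergenic higher site was a median of 477 kb from the nearest protein-coding gene, and a lower one 259 kb. The same shares and distances for all tested windows are not known.

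Among intergenic sites, the share that was higher increased with the distance from genes. It was 47.6% (59 of 124) up to 10 kb from a gene, 67.96% (369 of 543) up to 100 kb, 80.8% up to 500 kb, 86.4% up to 1000 kb and 89.7% (668 of 745) beyond. Promoter sites were split evenly, at 30 of 60, but 5 of the higher ones lay on the mitochondrial genome, which carries no histones. Gene-body sites were 65.3% higher (252 of 386). Sites near each other are not independent, since the median gap between neighbours was 48.8 kb, and no test was made of this order.

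**Figure D3:**
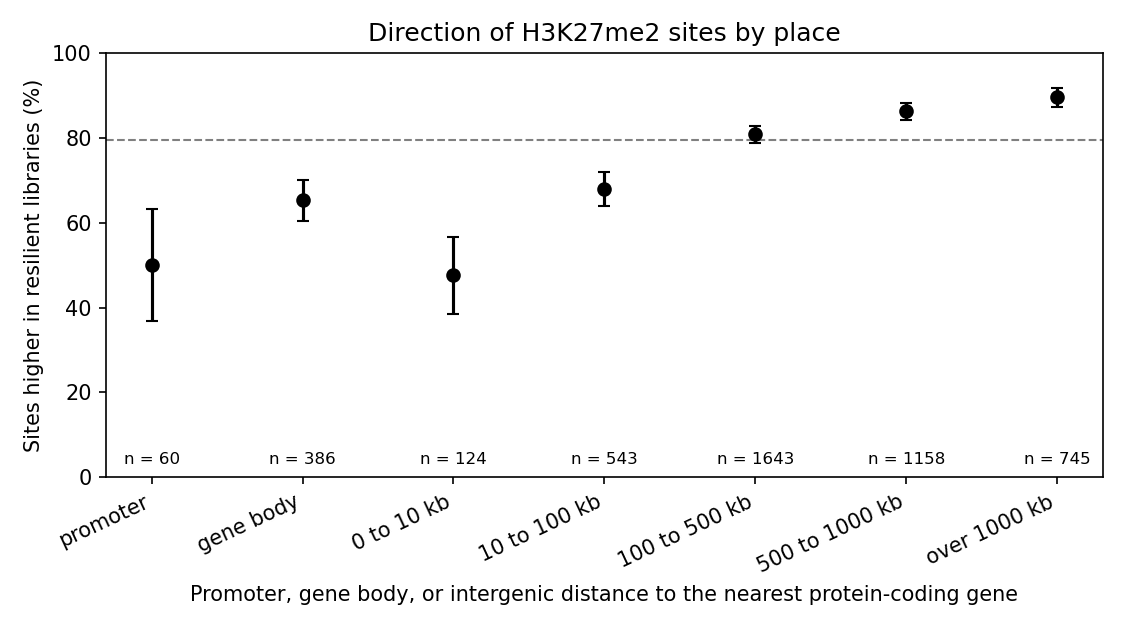
Percent of sites higher in resilient libraries, with exact 95% intervals (counting error only), for promoters, gene bodies and 5 classes of intergenic distance to the nearest protein-coding gene. The share runs from 47.6% within 10 kb to 89.7% beyond 1000 kb. The dashed line is the 79.5% of all sites. The promoter class includes 5 higher sites on the mitochondrial genome.

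The leading higher intergenic sites lay 199 to 985 kb from the nearest protein-coding gene. A site 985 kb from Grik2, which encodes a kainate receptor subunit, had 244, 231, 237 and 212 normalised reads in resilient libraries 51, 54, 57 and 60 (chr10:48107201-48109800, mm10). Control libraries 49, 52, 55 and 58 had 191, 140, 148 and 128. The groups did not overlap, and the log2 difference was 0.62 ± 0.16 (limma, SE). A site 199 kb from the cadherin gene Cdh7 had 97.8, 122, 121 and 122 reads in resilient and 87.6, 43.5, 55 and 66.7 in control libraries (chr1:109782301-109783700), a difference of 0.90 ± 0.19. Library 52 was the lowest control there, and the difference was 0.74 without it. A site 367 kb from Arid1b, a gene of the BAF chromatin remodeller, averaged 485 ± 117 against 320 ± 107 reads (SD, n = 4 each), and there the groups overlapped.

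Sites were also clustered along chromosomes. Chromosome 1 held 835 sites, chromosome 3 714 and chromosome 14 491, whereas chromosomes 7, 9 and 17 held 12, 10 and 10 and chromosomes 19, X and Y none. How the tested windows were spread over the chromosomes is not known, so these counts are not rates per tested sequence. The genome fell into 274 blocks of 5 Mb with a site, and of the 132 blocks with 10 or more, 121 held mostly higher and 9 mostly lower sites. The block with the most sites, 100 to 105 Mb of chromosome 1, had 84 of 96 higher. The most one-sided lower blocks were 85 to 90 Mb of chromosome 1, with 45 of 46 lower, and the first 5 Mb of chromosome 11, with 11 of 11 lower.

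**Figure D4:**
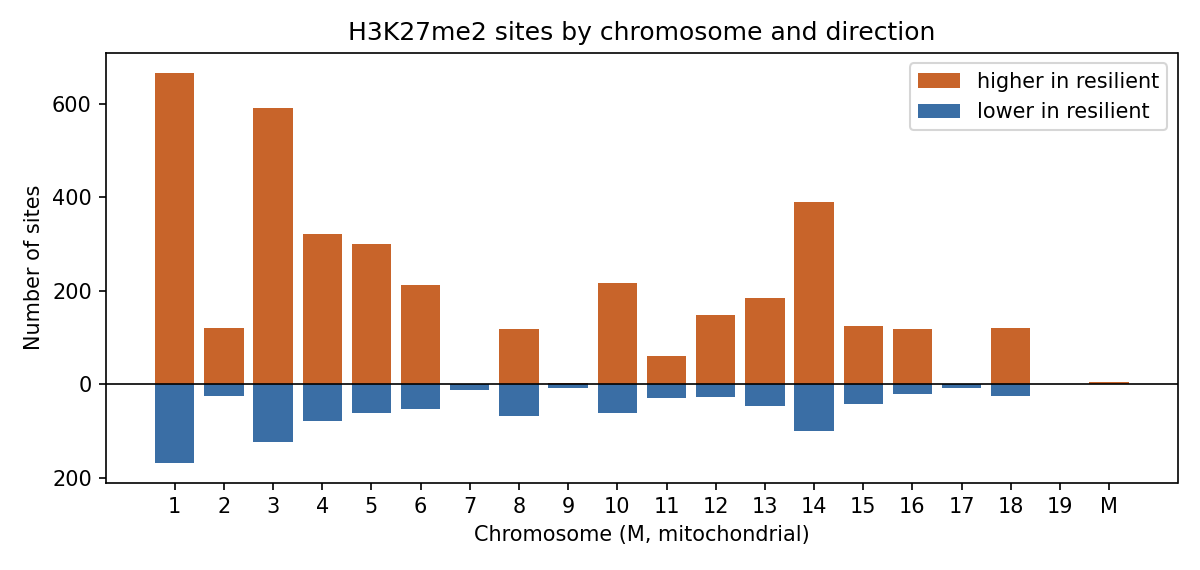
Number of H3K27me2 sites higher (upward bars) and lower (downward bars) in resilient libraries on each chromosome. Chromosomes 1, 3 and 14 carry 835, 714 and 491 sites, and higher sites outnumber lower ones on each of these 3.

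Few genes held a site. Of 21924 protein-coding genes, 265 (1.21%) held a site in the body or promoter, 141 with higher sites only, 92 with lower only and 32 with both. The share is of all annotated genes, since the genes reached by the tested windows are not known. The 265 genes include 11 mitochondrial ones. Apart from Sfi1, Sprr2a2 and Mroh2a, which had 10, 9 and 8 sites, the genes with most sites were Klhl1, an actin-binding Kelch protein of neurons (10 of 12 higher), Cnbd1 (7 of 10), Cntnap5b, a contactin-associated protein (8 of 9), Naaladl2 (8 of 9), Gpc5, a glypican (6 of 8), and 4 genes with 7 sites each. These 4 were Fstl5, a follistatin-like protein (7 higher), Cdh12 and Cpa6 (5 higher each) and Sugct (3 higher). These genes span 262 to 1433 kb.

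The higher sites in genes with the smallest p-values lay in Col5a2, Cpa6, Spag16, Tll1, Ccser1, Edil3, Naaladl2, Cdh12, Hsd3b3 and Olfr1023. An intron of Col5a2, a fibrillar collagen chain, had 228, 204, 212 and 229 normalised reads in resilient and 139, 162, 154 and 134 in control libraries (chr1:45470101-45472500). Each resilient library was above each control library, and the log2 difference was 0.57 ± 0.15 (SE). An intron of Tll1, a tolloid-like metalloprotease that processes matrix proteins, had 128, 125, 127 and 129 reads against 89.6, 72.5, 69.5 and 85.3 (chr8:64186401-64188000). The resilient libraries differed little among themselves there, and the difference was 0.68 ± 0.15. An intron of the cadherin gene Cdh12 had 114, 132, 129 and 112 reads against 83.1, 67.6, 70.4 and 79.1, a difference of 0.69 ± 0.15. An antisense gene, Gm49685, overlaps that intron. An intron of Naaladl2 averaged 99.4 ± 11.7 reads in resilient and 56.7 ± 20.9 in control libraries (SD, n = 4 each).

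**Figure D5:**
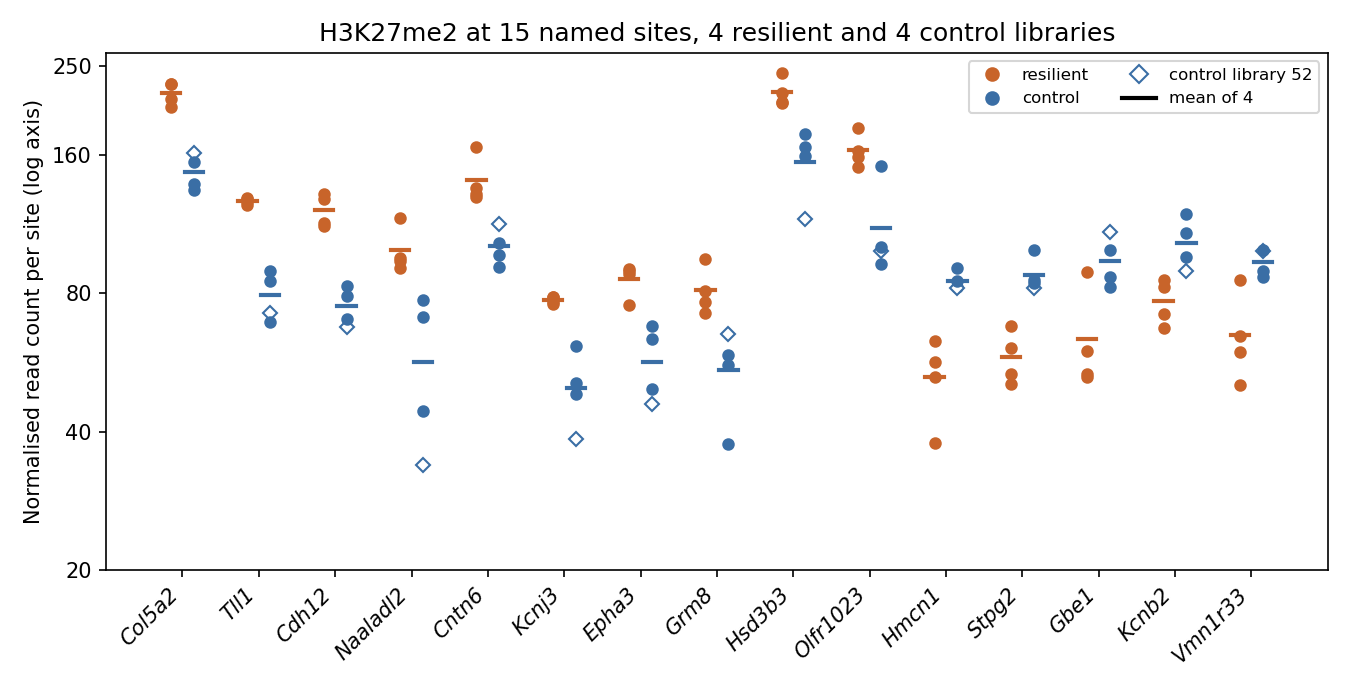
Normalised reads of each library at 15 sites named by gene (log axis), orange for the 4 resilient and blue for the 4 control libraries; short lines are means of 4 and the open diamond is control library 52. The first 10 sites are higher in resilient libraries, with Olfr1023 the only one of them at which the groups touch, and the last 5 are lower, with an overlap at Gbe1. The 15 were picked by hand from the named sites and do not represent all sites. Lower sites with small adjusted p-values and overlapping groups, such as Smo, Mroh2a and Duxf3, are not shown. Over all 4659 sites the groups did not overlap at 58.6%.

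Of the adhesion and guidance lists, 4 of 25 cadherins and protocadherins (16%) had a site, beside 1.21% of all genes; gene length was not taken into account in these shares. Cdh7, Ctnna3 (an alpha-catenin) and Pcdh15 had higher sites only and Cdh12 both kinds, with 9 of 11 sites higher and a median log2 difference of 0.49, beside 282 of 446 and 0.44 over all sites in genes. In Cdh7 itself the resilient libraries averaged 80.5 ± 7.99 and the controls 56.1 ± 2.42 reads (SD, n = 4 each). The Pcdh15 site no longer passed the rebuilt G-test without library 52. Of 48 synaptic adhesion genes, 2 (4.17%) had sites, Cntn6 and Cntnap5b, with 12 of 13 higher. Cntn6, a contactin, had 136, 132, 167 and 130 reads in resilient and 97.2, 114, 103 and 91.5 in control libraries, with no overlap. Of 37 axon guidance genes, 2 (5.41%) had sites, all 4 of them higher. They were the ephrin receptor gene Epha3, at 85.9 ± 6.94 against 56.8 ± 10.6 reads, and the guidance cue gene Sema3a, at 107 ± 8.05 against 69.3 ± 25.99.

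Among genes of neuronal signalling, potassium channels had the most sites. Of 37 potassium channel genes, 4 (10.8%) had a site, beside 1.21% of all genes, and 6 of these 8 sites were higher (median log2 difference 0.50), beside 282 of 446 (0.44) over all sites in genes. Kcnj3, a subunit of G-protein-gated inward rectifiers, had 75.7, 78.5, 78.7 and 76.6 reads in resilient and 61.4, 38.6, 48.2 and 51.2 in control libraries, a difference of 0.64 ± 0.16. Kcnn2, a calcium-activated channel, averaged 137 ± 9.73 against 95.2 ± 25.2 reads, and Kcnt2, a sodium-activated channel, 96.4 ± 8.83 against 62.7 ± 18.4. Both sites of the delayed rectifier gene Kcnb2 were lower, the named one at 76.9 ± 8.61 against 103 ± 13.3 reads. Kcnb2, Kcnn2 and Kcnt2 span 436, 417 and 366 kb, and gene length was not taken into account in the shares of these lists. Of 25 glutamate receptor genes, only Grm8 (4%), a presynaptic metabotropic receptor, had a site, which was higher, at 81.3 ± 9.79 against 54.4 ± 11.8 reads. Pde4d, a cAMP phosphodiesterase, was the only one of 32 cAMP and calcium signalling genes (3.12%) with sites (2 of 2 higher). Dlgap2 was the only one of 24 postsynaptic scaffold genes, with 1 lower site at which the authors' enrichment over IgG was under 1 in both groups (0.56 and 0.77).

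Other lists held no site. With a site in 1.21% of all genes, none or few would be found in lists of this size, so the zeros set no list apart. The identity genes of medium spiny neurons (29 genes) had none. Sodium and calcium channels (29), GABA receptor and synthesis genes (20), dopamine and serotonin receptors (24), presynaptic release genes (36), stress and neurotrophin genes (29), immediate early genes (20), developmental transcription factors (64) and ribosomal proteins (81) had none. Neither did the markers of astrocytes (16), oligodendrocytes (18), microglia (16), vascular cells (18) or cortical cells and interneurons (20). Of the 47 genes of Polycomb and H3K27 methylation none had a site, and Ezh1, Ezh2, Eed, Suz12, Kdm6a, Kdm6b and Uty were each at 0. The absence of a site says only that no window there passed the authors' limit, since windows below it are not in the table. The windows over which the authors adjusted p-values covered 52.7 Mb of the genome. Which genes they reached is not known here, so a gene without a site may not have been tested.

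Chemosensory receptor genes, which encode olfactory and vomeronasal receptors, held sites about as often as other genes. Of 1478 chemosensory receptor genes, 17 (1.15%) had a site, close to the 1.21% of all genes, and 14 of these 17 sites were higher, beside 282 of 446 over all sites in genes. Olfr1023 had 163, 183, 158 and 151 reads in resilient and 152, 99.0, 92.6 and 101 in control libraries, so that control library 49 lay at the level of the resilient ones. Vmn2r1 averaged 161 ± 7.62 against 111 ± 15.8 reads, and the promoter of Vmn1r33 went the other way, at 65.1 ± 14.9 against 93.7 ± 6.46. The following families were put together after their values were seen. The prolactin family, placental and pituitary hormones clustered on chromosome 13, had 10 of 10 sites higher, over 9 of 25 genes. The chitinase-like genes Chil3 and Chil4 had 7 of 7 higher, and the pancreatic amylase genes 3 of 3. The Sprr2 cluster had 7 of 10 higher, the casein and salivary cluster 3 of 4 and the major urinary protein genes 1 of 2.

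The higher promoter sites numbered 30. Hsd3b3, a steroid dehydrogenase gene, had 208, 242, 208 and 219 reads in resilient and 166, 116, 159 and 178 in control libraries (chr3:98759801-98762300), with no overlap. The difference was 0.51 ± 0.16, and 0.38 without library 52. Chil4 averaged 226 ± 28.7 against 167 ± 37.5 reads, the casein gene Csn3 104 ± 9.86 against 70.6 ± 19.4, the prolactin-family gene Prl8a9 80.6 ± 5.39 against 56.97 ± 14.7, and Vmn1r30 108 ± 11.4 against 78.6 ± 11.2 (SD, n = 4 each). A further 5 of the 30 lay on the mitochondrial genome, which carries no histones, and their enrichment over IgG was 0.01 in both groups. At mt-Cytb, control library 49 (827 reads) was above each resilient library (562 to 781).

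Lower sites, like higher ones, included sites in introns and exons. A site over an exon of Hmcn1, a hemicentin of the extracellular matrix, had 63.1, 52.6, 56.7 and 37.8 reads in resilient and 82.5, 82.1, 90.7 and 85.3 in control libraries (chr1:150657201-150658300). The control libraries lay close together there, the groups did not overlap, and the difference was -0.71 ± 0.17 (SE). An antisense gene, Gm20631, overlaps the site. Stpg2 averaged 58.3 ± 7.76 against 87.9 ± 7.78 reads, and the glycogen branching enzyme gene Gbe1 63.8 ± 17.3 against 94.4 ± 11.9. At a second site of Cpa6, a carboxypeptidase gene whose other named site was higher (228 ± 13.3 against 166 ± 8.18), resilient libraries averaged 90.2 ± 3.07 and control libraries 135 ± 37.8 reads. Of 426 zinc-finger protein genes, 6 (1.41%) had a site, close to the 1.21% of all genes, with 4 sites higher and 5 lower. By gene, 4 had lower sites only, 1 had higher only and 1 had both. Zfp978 and Zfp979 lie in a cluster of similar copies on chromosome 4. There the controls had 161 ± 32.7 and 108 ± 13.6 reads, and the resilient libraries 117 ± 18.9 and 76.4 ± 12.2. Enrichment over IgG was near background, at 0.76 in resilient and 1.11 in control libraries for Zfp978, and 0.9 and 1.01 for Zfp979. The groups overlapped at Zfp978 and did not at Zfp979.

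Other lower sites were deep, and some did not exceed the IgG background. Of the 78 sites that averaged 200 to 400 normalised reads, 13 were higher, and of the 60 above 400, 10 were higher. Of the 123 sites with an enrichment over IgG of 1 or less in either group, 18 were higher (14.6%), against 81.3% of the 4536 sites above 1 in both groups. Sites of the Sp100 family on chromosome 1, which includes Sp110 and Sp140, were lower at 20 of 20. The neighbouring stretch from the Ugt1a glucuronidation genes through Mroh2a and Hjurp to Trpm8, a cold-sensing channel, was lower at 16 of 16 sites. Sfi1, a centrosomal gene, was lower at 10 of 10. The resilient and control libraries did not overlap at 4 of the 20 Sp100-family sites, beside 54.9% of all lower sites. They overlapped at each of the 16 sites of the neighbouring stretch and each of the 10 in Sfi1. The Sfi1 sites had a median enrichment over IgG of 0.475 in resilient and 0.605 in control libraries. The Sp100 and Ugt1a families hold similar gene copies, among which reads can be hard to assign; duplication was not measured here and its part in the values was not tested. These groups of sites were formed after their values were seen.

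The largest site in Mroh2a had 737, 681, 771 and 721 reads in resilient and 691, 713, 1358 and 960 in control libraries. Control library 55 stood far above the rest, and 2 controls lay within the resilient range. The same held at Duxf3, with 964, 972, 1268 and 1135 reads in resilient and 1039, 1024, 2073 and 1559 in control libraries. At Smo, the transducer of Hedgehog signals, resilient libraries had 241, 162, 260 and 241 reads, with an enrichment over IgG of 0.35, and control libraries 237, 176, 532 and 360, with an enrichment of 0.48. For these 3 sites the limma differences were -0.30 ± 0.19, -0.34 ± 0.21 and -0.43 ± 0.26 (SE).

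At 5 lower sites with very high read numbers the direction turned without library 52. The deepest, at the start of Gm10800 on chromosome 2, had 175332, 154450, 158386 and 200365 reads in resilient libraries, 290299 in library 52 and 129549, 178539 and 157617 in the other 3 controls. The log2 ratio of the means was -0.13 with library 52 and 0.15 without it. The other 4 were at Gm21738, in Chl1, and near Rab10 and Rpusd4, and all 5 had an enrichment over IgG between 0.29 and 0.44. Among higher sites, 434 of 3706 (11.7%) no longer passed without library 52. A site 397 kb from Rfpl4b was one of these, with 14.5 reads in library 52 against 59.7 to 75.3 in the other controls and 78.9 to 92.3 in resilient libraries.

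Overlap with the H3K27me1 sites of the same comparison, which came from other libraries, was small. Of the 4659 H3K27me2 sites, 31 (0.665%) overlapped one of the 7005 H3K27me1 sites, and 32 of those (0.457%) overlapped one of these. The number of H3K27me1 sites was 2.54% of the number of windows tested for that mark, 1.31% higher and 1.23% lower. Of 33 overlapping pairs, 8 were higher for both marks, 16 lower for both, 8 lower in H3K27me2 but higher in H3K27me1, and 1 the reverse. Pairs lower in both included deep sites such as Duxf3 and the one near Rab10. At most pairs lower in both, H3K27me2 signal was below IgG in both groups, as near Rab10 (0.44 in resilient, 0.39 in control libraries). They included each site described above whose direction turned without the shallowest control library. Pairs higher in both included mitochondrial sites, with an H3K27me2 enrichment over IgG of 0.01 in both groups. Pairs with the same direction therefore include sites without H3K27me2 signal above background. With an overlap of at least 50% of the H3K27me2 site, 19 pairs were left.

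H3K27me2 in susceptible mice was compared by the authors with the same 4 control libraries, which gave 2075 sites. Their number was 4.3% of the 48304 windows tested, with 1440 (2.98%) higher and 635 (1.31%) lower. Because the controls are shared, the values are set side by side only. The authors' deposited tables gave log2 differences of 0.70 (resilient) and 0.39 (susceptible) at Cdh12, 0.50 and 0.50 at Hsd3b3, and 0.53 and 0.52 at Vmn2r1. At lower sites the deposited tables gave -0.70 and -0.49 at Hmcn1 and -0.58 and -0.55 at the lower Cpa6 site. The site near Arid1b had 0.60 in resilient and -0.33 in susceptible libraries, and mt-Cytb 0.25 and -0.24, in the authors' deposited tables. The overlapping sites of the 2 tables differ in extent.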

How the data were processed

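The authors deposited diffReps 1.55.4 tables in mm10 coordinates, with 1000-bp windows moved by 100 bp and a G-test per the file headers. Reads were uniquely aligned with duplicates removed, per the names in the file headers. The submitters' processing notes name Bowtie2 2.4.1 and SAMtools 1.10, the trimmers cutadapt 2.10 and Trim Galore 0.6.5, and MACS2 2.2.6. H3K27me2 libraries were amplified for 14 cycles per the labels. The deposited counts per library are reads in a site divided by the library's constant, and the deposited average signal is their mean over a group. The authors also deposited the ratio of signal over IgG background, log2 fold changes, and p-values adjusted over 52728 windows. Dividing out a refined constant recovered whole reads (within 0.1) for 100% of values at the 4564 sites used, and the G-test rebuilt from the summed normalised reads of each group matched the deposited p within 0.05 log10 units at each of 4620 sites.

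Sites were annotated with GENCODE M21 protein-coding genes (promoter, within 1000 bp of a start). Limma 3.58.1 (R 4.3.3) was fitted to log2(normalised reads + 1), 4 against 4 libraries, with no covariate, and was tested on simulated data. Since the deposited table holds selected sites only, its spread estimate comes from them. The named sites were, at a mean of 10 or more, the 10 smallest adjusted p-values in each direction, the 6 largest changes in each, the 8 genes with most sites, 4 promoter and 3 intergenic sites in each direction, up to 4 members of each list, the H3K27 enzyme genes, and 4 sites in each direction lost without library 52, with 1 site per gene in each part. They number 69. The members and lists were chosen with earlier results of these data known. Library depth was 10.6 to 40.3 reads per bin. Read values outside the deposited sites were not used here, and sequence came from RefSeq promoter windows only.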

Additional observations from a re-analysis of the deposited data

Results flagged for a closer look

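Among the 69 named sites, 7 of 138 groups of 4 libraries had 1 library far from the others (Dixon's criterion, which flags about 1 group in 20 by chance). Control library 52 was low near Dsel, at 28.98 normalised reads against 76.0 to 84.9 in the other 3 controls, and near Pkia, at 28.98 against 76.8 to 81.9. Both sites were named because they no longer passed without library 52. Control library 49 was high at Olfr1023, at 151.59 against 92.6 to 101. In the resilient group, library 51 was low near Cdh7 (97.83 against 121 to 122), library 57 was high in Cntn6 (167.09 against 130 to 136) and low in Spag16 (106.59 against 114 to 116), and library 60 was low in Epha3 (75.53 against 88.2 to 90.3).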

How the results depend on the processing

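The count of 4659 sites stayed within 1.5 times under stricter adjusted p-values, a mean of at least 20 reads, autosomes only and each single library left out (4041 to 4653), and fell to 1656 without control libraries 52 and 55, which was added after seeing the data. The share of higher sites (79.5%) was 81.3% above IgG in both groups and 72.5% without libraries 52 and 55. It was 77.1% with library medians made equal over the sites. That scaling lowered each log2 difference by 0.39 and assumes that the median selected site does not differ. It turned a higher site over an exon of Sprr2a2 to -0.12 and mt-Cytb to -0.066. That Sprr2a2 site is not the lower promoter site shown with its sequence. It averaged 675 ± 74.7 reads in resilient and 569 ± 140 in control libraries (SD, n = 4 each). Without library 52 the log2 difference turned to 0.15 near Rab10, 0.15 in Chl1 and 0.039 near Rpusd4, and without resilient library 54 to 0.00073 near Rab10; the lowest values with 1 library left out, control library 49, were -0.27, -0.23 and -0.29, and the cause was not tested. The limma count of 0 became 3108 with library weights and 4440 when adjusted over the selected sites alone, and ran from 0 to 6 with 1 library left out, 6 being without control library 49. Promoter sites were 2.17% within 3000 bp, and the H3K27me1 overlap was 19 sites at 50% or more. No paired analysis was possible because library numbers are not shared between groups. An edgeR fit, GC content over whole sites or gene bodies and a feature class from the authors were not run; the GC of promoter windows was given in its place.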
